A study of Mus musculus with 9 samples.

Results

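The regions described here were the places where the glucocorticoid receptor (GR) was bound in mouse granulosa cells 6 h after human chorionic gonadotropin (hCG), ordered from the strongest to the weakest. A locus was a stretch of overlapping peaks (1 bp or more) that was called in both GR peak lists made at 6 h, on chromosomes 1 to 19 and X. There were 8580 such loci among the 16217 merged loci of both lists. Strength was the mean of the locus's rank in each list by the fold enrichment the authors gave, written as a percentile on which 100 is the strongest peak of a list. The chromatin came from ovaries of 21-day-old wildtype CBA x C57BL/6 F1 mice injected with 5 IU of eCG (equine chorionic gonadotropin, also called PMSG) and, after 44 h, with 5 IU of hCG, and killed 6 h later. GR was immunoprecipitated with antibody sc-8992. A single list of acetylated lysine 27 of histone H3 (H3K27ac), from mice of the same strain, age and eCG dose killed without hCG (0 h), served as a map of active chromatin. The series has 9 samples, of which 5 came with peak lists, and the GR lists from 0 h were not used. Because the H3K27ac library is from 0 h and the GR libraries are from 6 h, chromatin that became acetylated after hCG is not in that map. The 2 GR libraries carry replicate numbers only, and whether each stands for other animals is not stated.

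GR is a nuclear receptor that waits in the cytoplasm bound to heat shock proteins and moves to the nucleus when it binds cortisol or corticosterone. It binds DNA as a dimer at palindromic glucocorticoid response elements, and also through or beside other factors such as AP-1, C/EBP and NF-kappaB. Granulosa cells surround the oocyte, make oestradiol under follicle-stimulating hormone, and after the surge of luteinising hormone, for which hCG stands in, they switch on the genes of ovulation and turn to making progesterone. H3K27ac marks active promoters and enhancers.

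Sequence could be read only near transcription start sites, from RefSeq windows of GRCm38.p6 that run from 250 bases before to 50 bases after a start. A GR locus overlapped 4565 of 21020 windows (17252 of 21631 protein-coding genes had a window), and in 1197 windows the summits of both libraries lay inside. The 250 bases before 6 starts whose windows held a GR locus are shown. They cover the strongest locus of all (Kmt2a), a gene of a CLOCK-interacting protein (Cipc) and a hexamer match under a strong locus (Polq). The others are a window outside H3K27ac (Tnfaip6) and palindrome matches near the strong and the weak end of the order (Mt1 and Txnip). At Mt1 the summits of both libraries did not both lie in the window. Each runs 5′ to 3′ toward the start site. Capitals mark the GC box GGGCGG in Kmt2a, the E-box CACGTG in Cipc, the hexamer AGAACA, which is an arm of the GR palindrome, in Polq, the AP-1 element TGANTCA in Tnfaip6, and the GR palindrome GNACANNNTGTNC in Mt1 and Txnip.
Kmt2a, chr9:44881290-44881539, minus strand: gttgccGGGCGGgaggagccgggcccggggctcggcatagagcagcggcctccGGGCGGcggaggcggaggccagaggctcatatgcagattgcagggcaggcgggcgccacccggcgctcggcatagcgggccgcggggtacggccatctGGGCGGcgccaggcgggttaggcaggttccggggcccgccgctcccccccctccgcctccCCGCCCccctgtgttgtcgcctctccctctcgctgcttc
Cipc, chr12:86947093-86947342, plus strand: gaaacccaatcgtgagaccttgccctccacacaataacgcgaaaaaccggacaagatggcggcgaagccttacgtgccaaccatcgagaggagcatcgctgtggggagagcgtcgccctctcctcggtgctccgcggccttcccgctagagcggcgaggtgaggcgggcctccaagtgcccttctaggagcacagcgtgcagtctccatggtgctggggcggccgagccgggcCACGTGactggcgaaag
Polq, chr16:37011536-37011785, plus strand: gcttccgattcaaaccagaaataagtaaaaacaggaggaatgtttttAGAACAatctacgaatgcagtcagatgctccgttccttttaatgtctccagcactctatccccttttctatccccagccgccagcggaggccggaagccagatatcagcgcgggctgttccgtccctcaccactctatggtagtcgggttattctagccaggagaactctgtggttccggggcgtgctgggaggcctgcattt
Tnfaip6, chr2:52037863-52038112, plus strand: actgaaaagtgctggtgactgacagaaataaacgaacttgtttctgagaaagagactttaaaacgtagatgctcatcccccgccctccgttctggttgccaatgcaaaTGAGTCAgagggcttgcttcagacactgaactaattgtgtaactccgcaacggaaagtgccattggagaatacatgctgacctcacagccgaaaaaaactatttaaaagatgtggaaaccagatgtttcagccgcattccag
Mt1, chr8:94178839-94179088, plus strand: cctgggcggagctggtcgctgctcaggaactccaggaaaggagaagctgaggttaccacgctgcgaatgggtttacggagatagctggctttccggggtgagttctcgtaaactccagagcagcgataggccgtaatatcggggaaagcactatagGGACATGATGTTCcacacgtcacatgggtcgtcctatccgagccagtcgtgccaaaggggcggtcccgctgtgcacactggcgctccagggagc
Txnip, chr3:96557707-96557956, plus strand: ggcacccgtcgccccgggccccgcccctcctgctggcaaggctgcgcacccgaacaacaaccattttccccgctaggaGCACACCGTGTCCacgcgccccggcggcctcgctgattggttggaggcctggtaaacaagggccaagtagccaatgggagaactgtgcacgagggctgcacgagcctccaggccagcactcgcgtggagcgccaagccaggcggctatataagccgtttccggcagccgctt

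The Kmt2a locus ranked 1 of 8580, with its summits 165 and 178 bases before the start in the first and second library. Capitals mark matching letters only, and not the positions of the summits. At Cipc the summits lay 213 and 169 bases before the start, and the E-box began 17 bases before it. At Polq, which encodes DNA polymerase theta, the locus ranked 176 and its summits lay 115 and 132 bases before the start. The hexamer in Polq began 203 bases before the start. At Tnfaip6, which encodes a hyaluronan-binding protein of the expanding cumulus matrix, the summits lay 21 and 22 bases before the start, and the AP-1 letters began 142 bases before it. The metallothionein gene Mt1 (locus ranked 716) and Txnip, which encodes an inhibitor of thioredoxin (locus ranked 7318), both carried the palindrome letters, although their loci stood far apart in strength. The letters of the palindrome were rare in these windows whether GR was bound or not. They were in 8 of 4565 windows with a locus (0.175%, 95% Wilson interval 0.0888 to 0.345%) and in 94 of all 21020 windows (0.447%). In windows that lay in H3K27ac with no locus they were in 16 of 4988 (0.321%). Among windows under loci of the strongest 20% they were in 3 of 599 (0.501%), and among those under the weakest 20% in 3 of 1009 (0.297%). The hexamer was in 10.2% of windows with a locus, 16.3% of all windows and 11.6% of windows that lay in H3K27ac with no locus. The GC box was in 72.6% of windows with a locus, 46.6% of all windows and 64.9% of windows that lay in H3K27ac with no locus. The ETS element CCGGAAGT was in 11.1%, 5.2% and 9.26% of the same 3 sets, and the cAMP response element TGACGTCA in 4.62%, 2.26% and 2.89%. The AP-1 letters were in 4.25% of windows with a locus, 7.04% of all windows and 3.83% of windows that lay in H3K27ac with no locus. Where the summits of both libraries lay in the window, they were in 20 of 203 windows of the strongest 20% (9.85%, interval 6.47 to 14.7%). The steps of 20% that followed had 3.96%, 5.81% and 2.06%, and the weakest 20% had 16 of 283 (5.65%, interval 3.51 to 8.99%). The intervals of the strongest and the weakest step overlap, and the shares did not fall steadily. All matches were counted on both strands, and windows of neighbouring start sites overlap, so they are not independent. Mean GC content was 63.2% in windows with a locus and 56.4% in all windows, and its part in these shares was not tested.

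The 2 libraries stood apart, and this bears on every statement about strength. The first list held 14732 peaks on the chromosomes used and the second 10587, and 58.9% and 85.0% of these lay in shared loci. The median fold enrichment at shared loci was 9.29 in the first library and 7.14 in the second. Fold enrichment was higher in the first library at 6890 of 8580 loci (80.3%). This shift was uneven. At loci in H3K27ac that lay at most 1 kb from either end of a protein-coding gene (called gene ends), the median ratio of the first to the second library was 1.41, and 91.4% of 4336 loci were higher in the first. Away from gene ends and outside H3K27ac the median ratio was 1.05, and 57.1% of 1741 loci were higher in the first. Spearman's rho between the libraries' fold enrichments was 0.643 over all loci, 0.63 in the former class and 0.78 in the latter (across loci, which are not replicates). Of the 100 strongest loci of each library, 67 were shared, and of the 1000 strongest, 631. The main shares and the counts of gene lists are therefore given for each library alone beside the mean rank. Distances, widths and motif shares by strength are by mean rank only. The sources used here give no read depth.

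**Figure D1:**
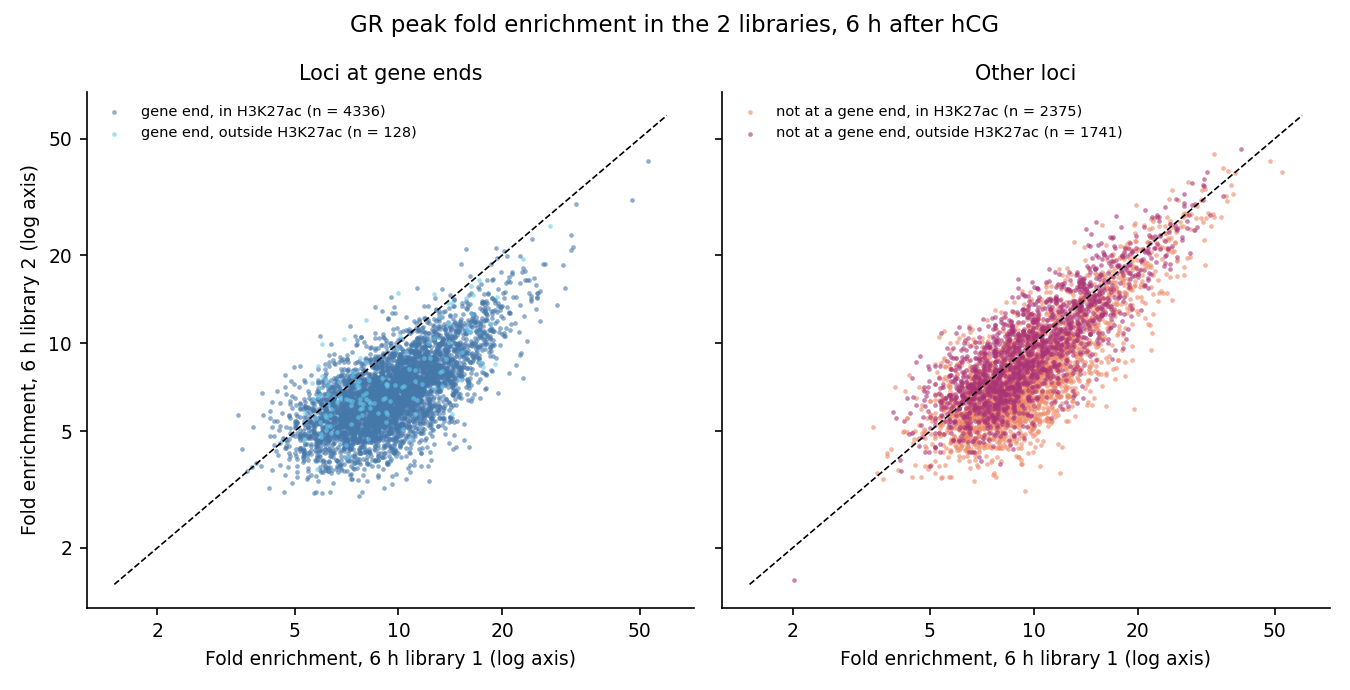
Fold enrichment of each of the 8580 shared loci in the first library (x) and the second (y), both on log axes, for loci at gene ends (left) and other loci (right), coloured by overlap with H3K27ac, with a dashed line where the libraries are equal. The cloud of gene-end loci in H3K27ac lies below the line (91.4% of 4336 loci), and the loci outside H3K27ac and away from gene ends lie around it.

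The strongest loci included those at genes of chromatin regulators, at a clock and a cell cycle gene and at the glucocorticoid target Zbtb16, and most lay far from gene ends. Of the 25 strongest, 3 were at a gene end, 17 inside a gene and 5 outside genes, and 17 overlapped H3K27ac. Fold enrichment in these 25 ran from 28.0 to 52.8 in the first library and from 27.9 to 46.1 in the second. The strongest locus, chr9:44881258-44881923, covered the start of Kmt2a, which encodes a histone H3 lysine 4 methyltransferase, at 52.8-fold and 42.0-fold in the first and second library. The next, chr15:95914754-95915444, lay inside Ano6, which encodes a lipid scramblase, at 40-fold and 46.1-fold, 26923 bp from the nearest H3K27ac peak. Frmd5 (36.5 and 38.8) and Wee1 (38.4 and 38.1), the kinase that holds back entry into mitosis, had their strongest loci 3531 and 4590 bp outside the gene. In Rab11fip1, which acts in recycling endosomes, the values were 35.4 and 39.8. The clock gene Per1 had a locus 899 bp inside the gene from its end (47.6 and 30.9). A second methyltransferase gene, Kmt2c, held the locus that ranked 15, at 31.2-fold and 36.4-fold and 73133 bp from any H3K27ac peak. Foxp1, a forkhead transcription factor gene, held the locus that ranked 16 (31.3 and 33.7).

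Zbtb16, which encodes the zinc finger repressor PLZF and is a classic glucocorticoid target, held 4 of the 10 strongest loci. Along the gene from its lower coordinate, the 8 loci had fold enrichments of 52.4, 33.4, 48.3, 37.3, 27.3, 19.1, 15.2 and 7.2 in the first library. In the second library the same loci had 38.5, 44.5, 41.9, 34.7, 32.4, 22, 20.1 and 6.6. The first 7 were in the strongest 10% of all loci. The first 4 overlapped H3K27ac, the next 3 did not, and the weakest lay at the gene's end with the higher coordinate, in H3K27ac. Both libraries put the same 5 loci on top and the same locus last.

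**Figure D2:**
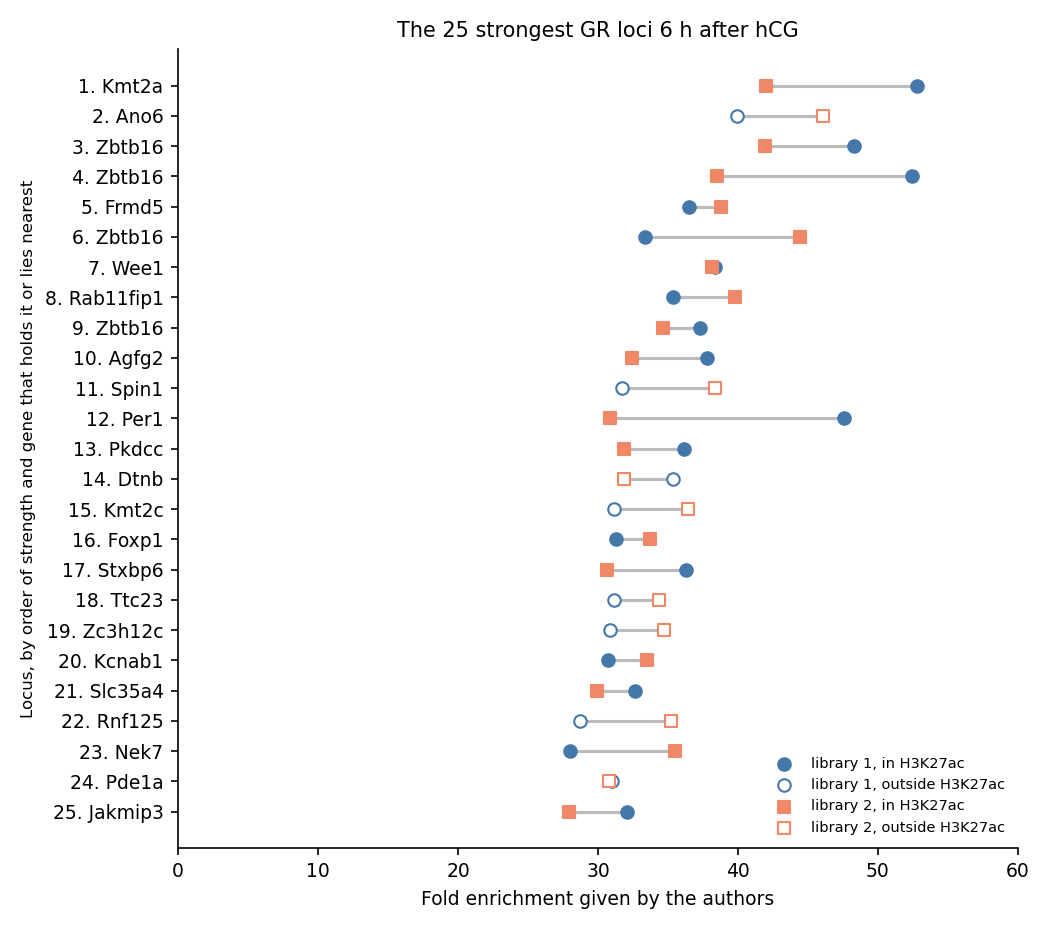
Fold enrichment given by the authors for the 25 strongest loci in the first (circles) and second (squares) 6 h library, with filled symbols for loci in H3K27ac and open symbols for loci outside it. All values lie between 27.9 and 52.8, and Per1, Zbtb16 and Kmt2a have the widest gaps between libraries.

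The weak end of the order looked different. The 5 weakest loci were at Churc1 (3.75-fold and 3.77-fold), Rhbdd1 (3.64 and 3.66), near Pdia5 (3.52 and 3.61), in Enah (3.65 and 3.44) and at chr17:39848388-39848791, 101729 bp from Esp38 (2.02 and 1.55). The first 4 were in H3K27ac, and the last was 511544 bp from it. Across the order, the median fold enrichment fell from 15.1 in the strongest 20% to 6.48 in the weakest 20% in the first library and from 12.5 to 5.12 in the second, which is what the ranking used. Peak width and summit position were not used in it. The median width of the peaks fell from 523 to 432 bp in the first library and from 447 to 288 bp in the second. The summits of the libraries were a median of 22 bp apart in the strongest 20% and 59 bp apart in the weakest 20%. The values at the borders were close. The strongest 20% ended with a locus at Dynll1 (strength 82.74) and the next was at Keap1 (82.72), and the weakest 20% began at Slc35e4, at a strength of 33.98, next to a locus of N6amt1 at 33.98.

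By the mean rank of both libraries, stronger loci overlapped H3K27ac less often and lay at gene ends less often. Of all loci, 78.2% (interval 77.3 to 79.1%) overlapped H3K27ac and 52.0% (51.0 to 53.1%) lay within 1 kb of a gene end. In the strongest 20%, 66.6% (64.3 to 68.8%) overlapped H3K27ac, against 77.1%, 80.5%, 81.2% and 85.6% (83.9 to 87.2%) in the next 4 steps of 20%. The share at gene ends was 34.9% (32.7 to 37.2%) in the strongest 20% and then 52.4%, 56.2%, 57.1% and 59.4% (57.1 to 61.7%). Among the 100 strongest loci, 64 were in H3K27ac and 8 at a gene end. These intervals cover counting error only, and loci are not replicates.

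The libraries differed on this point by more than the counting error. Ranked by the second library alone, the share in H3K27ac rose from 59.1% in the strongest 20% to 92.1% in the weakest, and the share at gene ends from 25.9% to 68.8%. Ranked by the first library alone, the shares in H3K27ac were 74.8%, 81.8%, 80.6%, 77.0% and 76.9% from strongest to weakest, and at gene ends 47.0%, 57.3%, 55.5%, 50.3% and 50%. Ranked by the authors' −log10 p-value in place of fold enrichment, the share in H3K27ac was 74.7% in the strongest 20% and 72.6% in the weakest, so the direction turned. At gene ends it was 41.3% and 48.0%. What both libraries showed was a low share of gene ends at the very top. In the strongest 10%, 39.2% of loci by the first library and 16.3% by the second were at a gene end, against 51.5% and 70.5% in the weakest 10%.

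**Figure D3:**
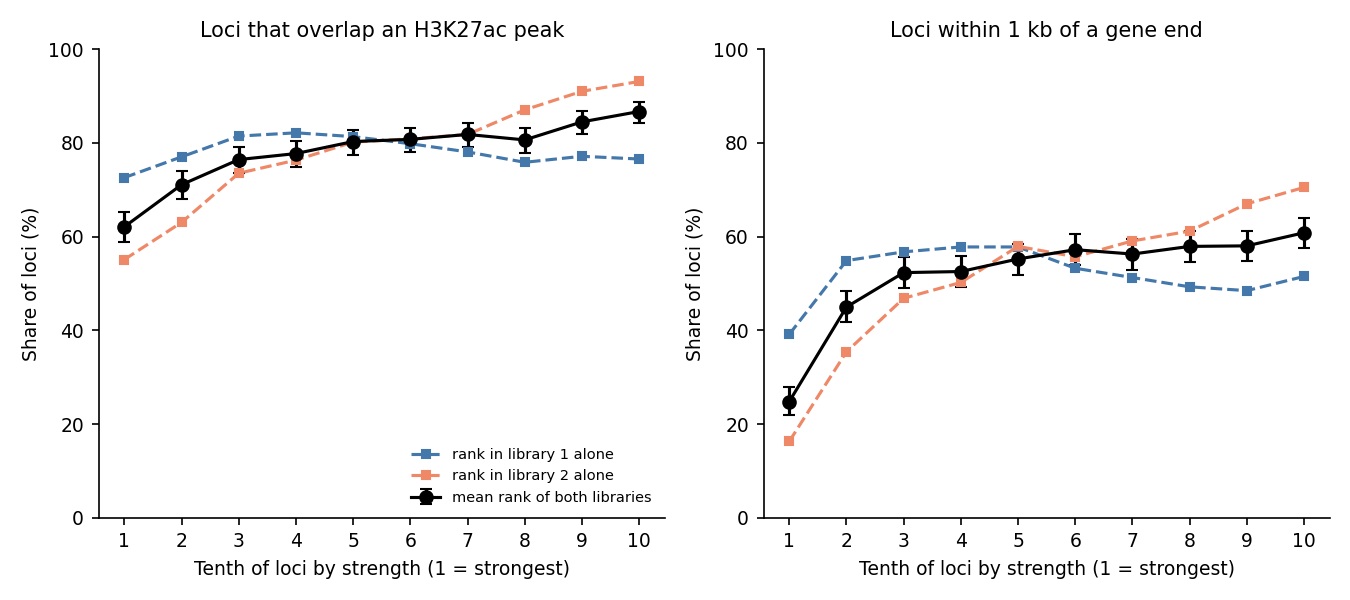
Share of loci that overlap an H3K27ac peak (left) and that lie within 1 kb of a gene end (right), in percent, in steps of 10% of the 8580 loci from strongest (1) to weakest (10), ranked by both libraries (black, with 95% Wilson intervals), by the first library alone (blue) or by the second alone (orange). The second library gives a steady rise from 55.1% to 93.1% in H3K27ac, and the first stays between 72.6% and 82.2%.

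Position and H3K27ac went together. Nearly every locus at a gene end was acetylated at 0 h, 4336 of 4464 (97.1%). Away from gene ends the share was 57.7% (2375 of 4116), and by mean rank it rose from 51.0% (48.1 to 54.0%) in the strongest 20% to 68.7% (65.1 to 72.0%) in the weakest. By the first library alone it was 57.9% in the strongest 10% and 57.7% in the weakest, and by the second 47.9% and 80.6%. The 1741 loci away from gene ends and outside H3K27ac had a median strength of 69.4, against 54.0 for the 4336 at gene ends in H3K27ac. In the first library alone these classes had median percentiles of 66.4 and 68.5, and in the second 75.7 and 44.2. Their order thus differed between the libraries.

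Most GR loci outside H3K27ac were far from an acetylated region. Of the 1869 loci outside it, 10.2% were within 1 kb of an H3K27ac peak and 56.8% were more than 10 kb away, and the median distance was 13523 bp. In the strongest 20% the median distance was 18638 bp and in the weakest 20% 9360 bp. Among the 100 strongest loci the median for those outside H3K27ac was 10478.5 bp, and among the 100 weakest 15959 bp. The distance thus did not change steadily with strength. Beyond Ano6 and Kmt2c, the 10 strongest of these loci lay in Dtnb, a dystrobrevin gene (35.4-fold and 31.9-fold), in Pde1a, a cyclic nucleotide phosphodiesterase gene (31.0 and 30.8), in Ttc23 (31.1 and 34.3), in Rnf125, a ubiquitin ligase gene (28.7 and 35.2), in Wbp1l (32.5 and 27.4), and near Spin1, which encodes a reader of histone methylation (31.7 and 38.3), Zc3h12c, which encodes an RNA-degrading regulator of inflammation (30.9 and 34.8), and N6amt1 (29.4 and 30). In 7 of the 10 the second library had the higher value. Some of these were close to acetylated chromatin, the Ttc23 locus at 90 bp, the N6amt1 locus at 380 bp and the Zc3h12c locus at 603 bp.

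Seen from the acetylated side, 18.5% of the 37453 H3K27ac peaks held a GR locus. Those that did had a median width of 1283 bp, against 543 bp for those that did not. The share with a locus rose from 3.63% in the narrowest 10% of peaks (200 to 248 bp) to 40.7% in the widest (2004 to 32326 bp). A wider peak offers more bases to overlap, and the part of width in this rise was not tested. Chromosome X had 11.5 loci per 100 H3K27ac peaks, against 21.0 to 27.4 on the autosomes, and its 123 loci had a median strength of 68.8.

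Peak clusters were next examined, taken as 3 or more loci with gaps of at most 10 kb. Of the 8580 loci, 5919 (69.0%) stood alone, 1618 (18.9%) were in pairs and 1043 (12.2%) were in 273 clusters. Median strength was 56.3 for clustered and 57.9 for single loci. In library terms the median percentiles of clustered and single loci were 62.0 and 67.7 in the first and 56.9 and 53.5 in the second, so the libraries differed in direction. Large and small clusters differed. The 840 loci in clusters of 3 to 5 had a median strength of 60.1 and 26.8% of them were in the strongest 20%, with median percentiles of 66.5 and 59.9 in the first and second library. The 203 loci in clusters of 6 or more had a median strength of 45.9 and 12.3% of them were in the strongest 20%, with median percentiles of 45.5 and 49.2. Within a cluster strength varied widely, with a median range of 47.3 percentile points. In 125 of the 273 clusters (45.8%) some loci were in H3K27ac and some outside it, in 130 all were in it, and in 18 none was.

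The largest clusters were runs across gene bodies, mostly outside H3K27ac, with few loci of the strongest 20%. Gramd1b, which encodes a protein that carries cholesterol from the plasma membrane to the endoplasmic reticulum, held a run of 20 loci over 37103 bp (chr9:40294358-40331460). Their fold enrichments ran from 4.81 to 9.67 in the first library and from 5.42 to 7.29 in the second, and 5 of the 20 overlapped H3K27ac. Greb1, an oestrogen-responsive gene, held 18 loci (4.77 to 8.37 and 4.84 to 9.43), 8 of them in H3K27ac. Runs of 15 loci at the splicing factor gene Rbm39, 13 at Bzw1 and the splicing kinase gene Clk1, and 10 at Ybx1, which encodes an RNA- and DNA-binding protein, had 1, 3 and 2 loci in H3K27ac. Ephx2, which encodes soluble epoxide hydrolase, had 14 loci, of which 8 were in H3K27ac, and a top locus at 25.1-fold and 20.5-fold. Loci of the strongest 20% numbered 2 each in the Bzw1 and Ybx1 runs, 1 in the Ephx2 run and 0 in the other 3. Loci covered 57.6% of the Gramd1b run and 86.1% of the Ephx2 run, and between 21.9% (Greb1) and 39.7% (Rbm39) of the other 4. Over the 6 runs, 27 of 90 loci (30%) were in H3K27ac.

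Clusters with the most loci of the strongest 20% were smaller and lay at other genes. After Zbtb16, they were at Supt3 and at a run whose nearest gene, at 152550 bp, is Cited2, which encodes a coregulator that binds CBP and p300. Each had 4 such loci. The 5 loci near Cited2 had 13.7, 13.9, 17, 21.7 and 7.75-fold enrichment in the first library and 13, 14, 14.7, 24.6 and 10.2 in the second, and all but the weakest were in H3K27ac. At the metallothionein genes, which encode metal-binding proteins and are textbook glucocorticoid targets, 4 loci lay within 16979 bp. They had 6.6, 17.1, 15.3 and 18.7-fold enrichment in the first library and 6.1, 16.4, 9.1 and 11.2 in the second. The second of these, chr8:94171228-94171937, was near Mt2 and outside H3K27ac by 288 bp, and the last covered the Mt1 start whose palindrome is printed above. Tnfaip6 had 6 loci over its length at 16.5, 5.4, 18.2, 7.9, 12.2 and 9.0-fold in the first library and 14.6, 6.7, 13.9, 8.9, 10 and 7.6 in the second. Only the fourth of the 6 Tnfaip6 loci overlapped H3K27ac, and the locus over the start was 15218 bp from it.

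**Figure D4:**
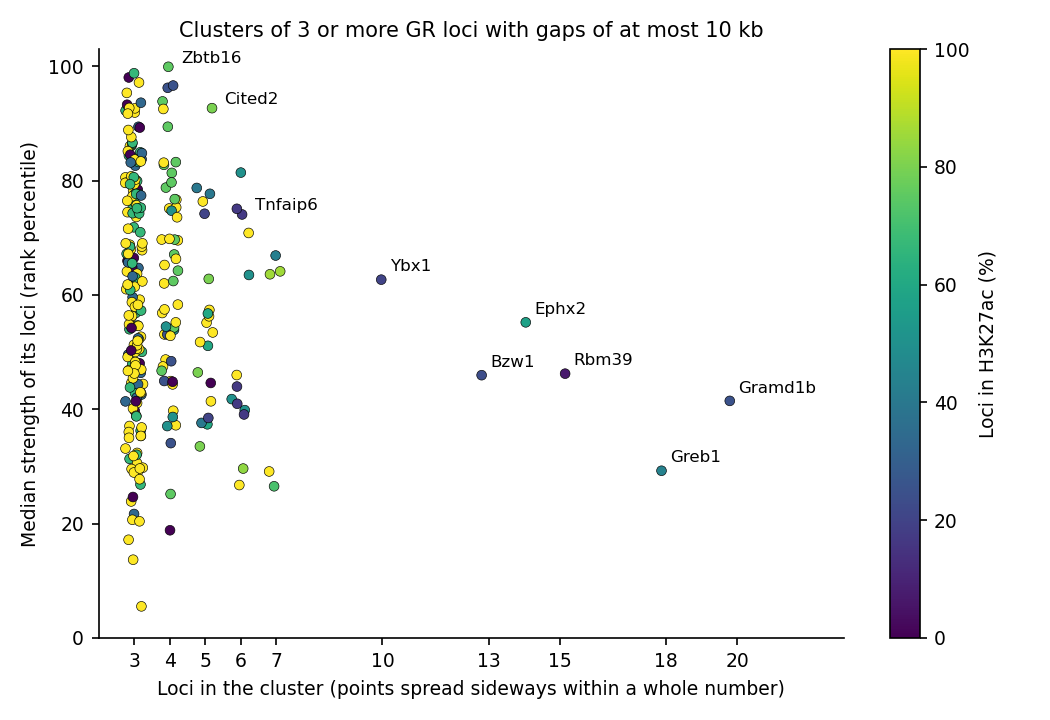
Each point is 1 of the 273 clusters, placed by its number of loci (x, spread sideways within a whole number) and the median strength of its loci (y, rank percentile), coloured by the percentage of its loci in H3K27ac. The 6 clusters of 10 or more loci have medians between 29.2 and 62.7, and Zbtb16, with 4 loci, stands at the top.

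Vmp1, which encodes a membrane protein of autophagy, held a cluster of 7 loci that reaches the microRNA gene Mir21a. Its strongest locus, chr11:86586347-86587643, ranked 27 with 33.2-fold and 27.6-fold enrichment, overlapped H3K27ac and lay 2189 bp from the Mir21a hairpin. Only loci near the hairpins Gm51278 and Mir6244 ranked higher among loci within 10 kb of a hairpin. Its product is well studied, and the mature RNA is printed with its seed (bases 2 to 8) in capitals, as RefSeq lists it at chr11:86584120-86584141 on the minus strand.
miR-21a-5p: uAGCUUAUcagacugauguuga
Of 1005 microRNA hairpins, 203 (20.2%) had a locus within 10 kb, and 25 had a locus of the strongest 10%.

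Genes were then read through windows that add 50 kb on both sides of the gene. Of 21631 protein-coding genes, 11480 (53.1%) had a locus in the window and 1602 (7.41%) had a locus of the strongest 10%. The share with a locus was 68.6% among genes with an H3K27ac peak in the window and 3.08% among the 5134 genes without. Median gene length was 20196 bp with a locus and 13915 bp without. Gramd1b had the most loci (40), followed by Greb1 (26), Scn3b (20), Spsb1 and Phf20 (18 each) and Rbm39 (17). Of these, Scn3b held no locus and Phf20 held 2 inside the gene, and the rest lay in neighbours such as Gramd1b and Rbm39. A window can hold the loci of a neighbour, so the counts of strong loci are also given for windows of 10 kb, where 3.45% of genes had a locus of the strongest 10%, and for the strongest 10% by the first library alone (8.38% of genes) or the second alone (6.66%). Gene lists were chosen with earlier results of these data known, so their counts are descriptions, and nothing is called particular to a list.

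Among textbook glucocorticoid targets strong loci were more common than the 7.41% over all genes. Of 27 genes, 22 had a locus and 13 (48.1%) had one of the strongest 10%, a number that was 13 with windows of 10 kb, 12 by the first library and 11 by the second. In 10 of the 13 the strongest locus was named for the gene itself and not for a neighbour. After Zbtb16 and Per1 came Nfkbia, which encodes the inhibitor of NF-kappaB (31.7-fold and 20.8-fold at the gene's end, rank 89). Fkbp5, the GR co-chaperone gene, had 6 loci in its window, the strongest of them 36326 bp beyond the gene and nearer Armc12 (27.2 and 18.2, rank 152). The strongest locus inside Fkbp5 had 14.4-fold and 17.0-fold enrichment (rank 521). Ddit4, which encodes an inhibitor of mTOR signalling (19.3 and 18.4, 17864 bp outside the gene and nearer Anapc16), and Tsc22d3 (16.9 and 20.2), which encodes GILZ, followed. Klf9 had loci at its start (16.2 and 14.9) and beside it (18.7 and 13.2). No locus was found near Tnfaip3, Sesn1, Anxa1, Pdk4 or Cdkn1c. Of 6 metallothionein and zinc genes, 4 (66.7%) had a locus of the strongest 10%, and the strongest for all 4 was the same locus near Mt2. The number was 2 within 10 kb and 4 by either library, and these neighbouring genes share their loci.

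Genes of the ovulatory response to luteinising hormone were mixed. Of 27, 21 had a locus and 10 (37.0%) had one of the strongest 10% (8 within 10 kb, 11 by the first library and 9 by the second). Vcan, which encodes the matrix proteoglycan versican, had 14 loci in its window. The strongest of these, chr13:89760153-89760846, lay 17126 bp outside the gene and ranked 92 (24.9-fold and 22.8-fold). The 5 loci at the highest coordinates, of which 2 lay inside the gene, were in H3K27ac. The other 9, all inside the gene, were outside H3K27ac and ran from 5.4 to 13.3-fold in the first library and from 5.4 to 7.9 in the second. Pparg (19.5 and 19.7), a nuclear receptor gene, Ctsl (18.6 and 19.9), a protease gene, and Adamts1 (16.4 and 12.6), which encodes the protease that cleaves versican, also had strong loci. By contrast Pgr, the progesterone receptor gene, had a single locus (9.6 and 6.9), and Ptgs2, the prostaglandin synthase of ovulation, had a single weak locus (7.8 and 5.7, rank 6662) at 121912 bp from any H3K27ac peak. Has2, Ptx3, Il6, Areg, Btc and Plat had none.

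Early transcription factor genes had strong loci mostly at gene ends, with the library shift that goes with gene ends. Of 18, 17 had a locus and 10 (55.6%) had one of the strongest 10%. That number was 8 within 10 kb, 11 by the first library and 5 by the second. At Fos, Jund, Junb and Jun, which encode subunits of AP-1, the strongest loci had 28.9, 25.2, 17.8 and 20.4-fold enrichment in the first library and 13.5, 14.4, 13 and 10.6 in the second, all lower. The strongest locus of the list was in the window of Fosb, another AP-1 gene, and was not lower in the second library. It ranked 253, had 18.6-fold and 18.7-fold enrichment, and lay at a gene end 34554 bp outside Fosb, nearer Ercc1. Only Myc had no locus. The 6 C/EBP genes all had a locus, and 3 had one of the strongest 10%, namely Cebpb (19.3 and 11.9), Cebpa (15.7 and 13.2) and Ddit3 (15.6 and 11.5). By the second library alone it was 1 of 6. Of 12 Krueppel-like factor genes, 4 had a locus of the strongest 10% (Klf13, Klf2, Klf15 and Klf9), and the number was 4 within 10 kb, 5 by the first library and 4 by the second. Of 14 MAP kinase feedback inhibitors also 4 had one (Dusp6, Dusp5, Errfi1 and Dusp1), with 2 within 10 kb, 5 by the first library and 3 by the second.

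Housekeeping genes, set beside these lists as a gauge, were not low. Of 15, 14 had a locus and 6 (40%) had one of the strongest 10%, including Hprt (19.1 and 21.0, outside the gene and nearer Phf6), Actb (24.2 and 13.9) and Eef1a1 (17.5 and 13.8). The number was 3 (20%) within 10 kb, 6 by the first library and 5 (33.3%) by the second. Within 10 kb the share was 48.1% for glucocorticoid targets, 44.4% for early transcription factors and 29.6% for ovulatory genes. By the second library it was 40.7%, 27.8% and 33.3% for the same lists, so housekeeping genes stood above the early transcription factors there and level with the ovulatory genes.

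Genes of steroid synthesis and of cholesterol metabolism differed in the strength of their strongest locus. Its median over members with a locus was 85.9 for luteinisation and steroid synthesis and 56.7 for cholesterol genes. Over all genes with a locus it was 68.5. Members had a median of 3 and 1 loci in their windows, and the part of that number in the difference was not tested. Over the distinct loci of each list the median strength was 60.7 and 53.8. Of these loci 15 of 47 and 24 of 33 were at gene ends, where the libraries differed most, and the medians are by mean rank only. Of 17 genes of luteinisation and steroid synthesis, 14 had a locus (all but Stard3, Akr1c18 and Nr5a1) and 2 (11.8%) had one of the strongest 10%. The number was 1 within 10 kb, 2 by the first library and 3 by the second. Star, which encodes the carrier of cholesterol into mitochondria, had a locus 1930 bp outside the gene (14.4-fold and 7.4-fold). Cyp11a1, which encodes the enzyme that cleaves the cholesterol side chain, had 6 loci in its window, all in H3K27ac. The strongest of them lay in the neighbouring Ccdc33 (12.5-fold and 15.1-fold). Lhcgr, the luteinising hormone receptor gene, had 3, the strongest at 12.3-fold and 9.74-fold. Of 25 cholesterol genes, 20 had a locus (all but Lss, Srebf1, Abcg1, Lipe and Scap) and 3 (12%) a strong one (1 within 10 kb, 3 by either library), with Insig1, a brake on cholesterol synthesis, at 21.5-fold and 14.4-fold. Genes that carry the preovulatory response to follicle-stimulating hormone had a locus in 18 of 21 cases and a strong one in 3 (14.3%), a number that was 3 within 10 kb and 4 by either library. Fshr, the receptor gene itself, held a locus at 24.0-fold and 23.8-fold in H3K27ac (rank 94), and Cyp19a1, which encodes aromatase, a single locus at 8.1-fold and 6.6-fold (rank 5364).

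The remaining lists, apart from the cell type markers, had shares between 6.25% and 23.1%. Clock genes had a strong locus in 4 of 19 cases (21.1%), with Per1 first, and the number was 4 within 10 kb, 5 by the first library and 4 by the second. For TGF-beta and BMP genes it was 6 of 26 (23.1%), with Smad3 first (24.0 and 18.8), and 5, 6 and 5 in the same order. For matrix and vessel genes it was 5 of 24 (20.8%), with the protease gene Adamts9 first (33.3 and 26.9, rank 33), and 4, 5 and 5. Genes of GR itself, its corticosteroid enzymes and coregulators had 4 of 18 (22.2%), and 3, 5 and 3. The GR gene Nr3c1 and the enzyme genes Hsd11b1 and Hsd11b2 were among the 5 members without a locus. Inflammation and prostaglandin genes had 2 of 23 (8.7%), and 1, 3 and 2. Cyclic AMP genes had 2 of 19 (10.5%), and 1, 1 and 2. Cell cycle genes had 2 of 20 (10%), and 0, 3 and 2. Insulin-like growth factor genes had 1 of 16 (6.25%), a number that was 1 in all of these counts, and a locus of any strength in 7 of 16 (43.8%).

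**Figure D5:**
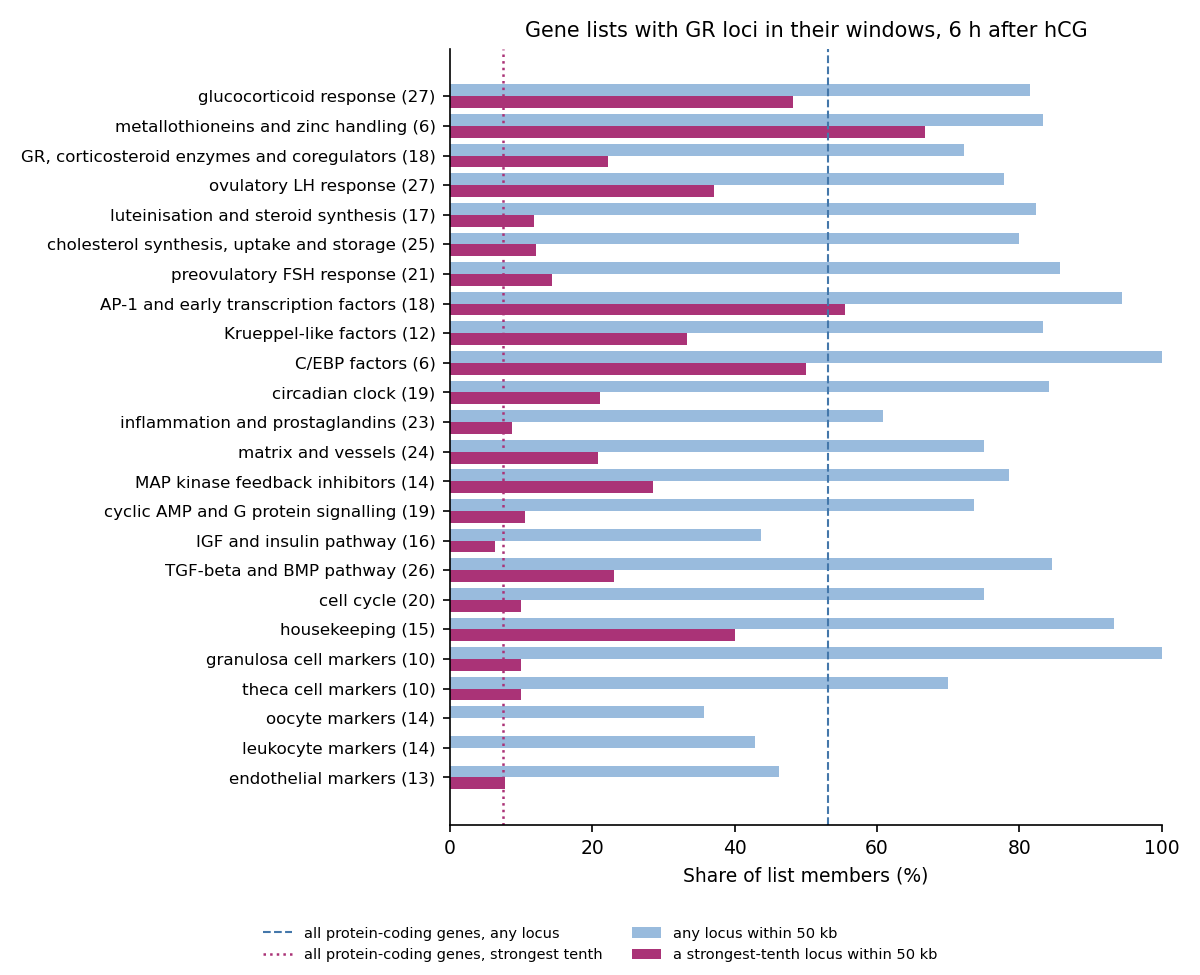
Share of each list's members (number in brackets) with any GR locus (blue bars) and with a locus of the strongest 10% (purple bars) in the gene with 50 kb added on both sides, with dashed and dotted lines for all 21631 protein-coding genes (53.1% and 7.41%). The early transcription factor (55.6%) and glucocorticoid (48.1%) lists lie far above the dotted line, and so do the housekeeping genes (40%).

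The label of granulosa cells was checked against markers, over the gene with 1 kb added on both sides. Of 10 granulosa markers, all 10 had an H3K27ac peak and 9 a GR locus (all but Amhr2). The numbers were 3 and 3 of 10 for theca markers, 1 and 1 of 14 for oocyte markers, 4 and 1 of 14 for leukocyte markers and 3 and 2 of 13 for endothelial markers. Over all genes the shares were 56.0% and 28.4%. The markers of other cell types with an H3K27ac peak were Cyp17a1, Nr2f2 and Ptch1 (theca), Gdf9 (oocyte), Cd68, Fcer1g, Itgam and Spi1 (leukocyte) and Cdh5, Pecam1 and Vwf (endothelial). Their part in the GR results was not tested. Every granulosa marker had a locus in its 50 kb window, against 53.1% of all genes. A locus of the strongest 10% was in the window of 1 of 10 (10%), Fshr, against 7.41% of all genes. For theca markers this number was 1 of 10, for endothelial markers 1 of 13, and for oocyte and leukocyte markers 0 of 14 each.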

How the data were processed

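GR and H3K27ac ChIP-seq peak lists from mouse granulosa cells were used. Per the submitters' processing notes, which name Bowtie2 2.4.5, MACS2 (no version) and mm10, these tools made the lists, and each deposited list belongs to 1 library. For every GR peak the deposited columns are a summit, a fold enrichment (a ratio), −log10 values of p and q, and a score that equals 10 times the −log10 p-value without its decimals. The weakest deposited −log10 p-values were 9.02 and 9.10, so peaks had been limited before deposit. The deposited H3K27ac list gives positions only. Values rank peaks within 1 list.

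Peaks on chromosomes 1 to 19 and X were merged at 1 bp of overlap (16 and 1 peaks lay elsewhere), and each list was ranked by fold enrichment with Python 3.11.15 and pandas 2.3.3. A locus with several peaks of a list took the strongest. Genes, gene positions and start-site windows are RefSeq's for GRCm38.p6, whose gene table has no strand. A gene end is either end. All 373 distinct genes of the 24 lists were found, 1 by an older name. Loci and genes were named from the 25 strongest and 5 weakest loci, the 10 strongest inside and outside H3K27ac, the 5 largest rank gaps, the 10 largest clusters, the 10 genes with most loci and, per list, up to 4 members with the strongest locus and, where 5 or fewer, those without. Loci at Fos, Jun, Star and other genes known in this tissue, the clusters with the most strong loci, the printed windows and Mir21a were chosen after their values were seen. The members and lists were chosen with earlier results of these data known. With 2 libraries and 1 condition, no test between groups was made. Shares carry 95% Wilson intervals for counting error (statsmodels 0.14.6). The merging, ranking and overlap steps were tested on simulated lists. Alternatives changed the lists, ranks, overlaps, gaps and windows. A few items are not reported here.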

Additional observations from a re-analysis of the deposited data

Results flagged for a closer look

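Peaks on chromosome Y, which the loci leave out, were flagged as signal outside the main measurement. The first 6 h list held 14 such peaks, with fold enrichments from 4.09 to 8.53, and the second held 1, with 5.17. The cells came from ovaries. All 14 lay between 90740062 and 90812479, and the H3K27ac list had 0 peaks on this chromosome. The cause was not tested.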

How the results depend on the processing

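Results rest on 2 libraries, ranks of the authors' fold enrichments and an H3K27ac map from another time. The sources give no read depth, so a missing peak shows only that a list's limit was not passed. No paired analysis was possible because no result comes from a test between groups. A value counted as moved when it changed by more than 1 SD between the libraries, or a count by more than 1.5 times.

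Using a single list (leaving out the first or the second library), the number of loci was 10587 to 14732, clustered loci 19.9 to 21.4%, their median strength 42.6 to 45.7, that of single loci 52.0 to 53, and the weakest 20% in H3K27ac 80.7 to 85.0%. With the stronger 50% of each list, there were 3985 loci, 77.5% of the weakest 20% in H3K27ac, 50.8% of these at a gene end, 5.5% in clusters, median strengths of 65.3 (clustered) and 58.8 (single), and 6820 genes with a locus. With equal numbers of peaks, 9.6% were in clusters and single loci had a median of 57.1. Ranked by −log10 p, the weakest 20% had 72.6% in H3K27ac and 48.0% at gene ends, and single loci a median of 60.2. Ranks among shared loci gave medians of 46.1 (clustered) and 48.2 (single). Requiring the summit inside H3K27ac gave 80.0% in the weakest 20%, and a gene end within 250 bp gave 50.6%. Gaps of 5 kb and 25 kb gave 7.4% and 25.1% of loci in clusters, with a clustered median of 52.7 at 5 kb. Windows of 10 kb gave 7529 genes with a locus, and the nearest gene only 5920.

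Chosen after seeing the data, raw ranks gave medians of 63.4 and 65.3. Without clusters of 10 or more loci the clustered median was 58.7, above that of single loci. Ranked by the first library alone, the weakest 20% had 76.9% in H3K27ac and 50% at gene ends, with medians of 62.0 (clustered) and 67.7 (single). By the second alone these were 92.1% and 68.8%, and 53.5 for single loci. The causes were not tested.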

Other observations

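Some loci were strong in a single list. In the first list 19 loci without a partner ranked in its strongest 10%, led by Lpp (17.7-fold), Grina (17.2) and Paip1 (16.4), and in the second list 2, near Hdac7 (12.9) and Csf2 (12.2). Of all 6052 loci of the first list alone, 78.1% were in H3K27ac and 55.2% at a gene end. Of the 1585 loci of the second list alone, the shares were 26.7% and 11%.

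The 5 loci whose ranks differed most between the libraries were all at gene ends in H3K27ac and higher in the first library. They were at Slc4a7 (16.0-fold and 4.43-fold), the heat shock gene Hspa1b (14.7 and 4.42), the translation factor gene Eif4g1 (14.4 and 4.37), Ergic2 (15.5 and 4.68) and B230219D22Rik (12.3 and 3.39).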
